A study of Mus musculus with 16 samples.

Results

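The interaction of genotype and rimeporide is the difference between the effect of the drug in Grn knockout (KO) microglia and its effect in wild-type (WT) microglia. It was computed for each gene as the log2 change from DMSO to rimeporide in KO minus the same change in WT, from all 16 libraries of the series. The cells were primary microglia from cortex and hippocampus of mice aged 1 to 3 days, grown as mixed glia and shaken off, with no sort named. The 4 groups of 4 libraries were WT with DMSO vehicle, WT with 2 uM rimeporide, Grn KO with DMSO and Grn KO with 2 uM rimeporide, each for 72 h. The sources used here do not give the strain, the deleted part of Grn, or whether libraries of both treatments that share a number share a culture. The p-values therefore measure the spread between libraries of a group.

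Grn encodes progranulin, a secreted glycoprotein that is carried to lysosomes and cut there into granulins, and its loss is known to disturb lysosomes in microglia. Rimeporide blocks sodium-proton exchange across the plasma membrane, a process that helps set the pH of the cytosol. A positive interaction means that the log2 change with rimeporide was higher in KO than in WT. It can arise from an increase in KO, a decrease in WT or both, so for some genes the levels in all groups are given beside it. Where the interaction stands alone, the genotype that changed cannot be read from it.

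Libraries held 3666413 to 7929499 counts. Grn separated the genotypes, at 1597 to 1827 CPM (counts scaled to library size) in the 8 WT libraries and 10.7 to 24.2 CPM in the 8 KO libraries. Microglial markers, all 10 of which were tested, summed to 2175 to 2740 CPM over the 16 libraries. The 5 tested neuron markers summed to 5.71 to 12.3 CPM in WT and 42.4 to 79.2 CPM in KO. The 9 tested astrocyte markers summed to 15.8 to 30.6 CPM in WT and 69.8 to 103 CPM in KO. Within KO the sums in DMSO and rimeporide overlapped for both types. The processed pseudogene score, which is the mean centred log2 CPM of 933 intronless gene copies, was -0.77, 0.12, -0.54 and -1.01 in KO DMSO replicates 1 to 4. In the other 3 groups it lay between -0.14 and 0.59. KO DMSO replicates 1, 3 and 4 thus stood apart from the other 13 libraries, and they also held the highest total counts (7929499, 6659436 and 6660582). KO DMSO replicate 2, with 4422263 counts, lay among the other groups. Since 1 group of the contrast is split in this way, the counts of genes called, over all genes and in each list, are given with and without replicate 2.

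**Figure D1:**
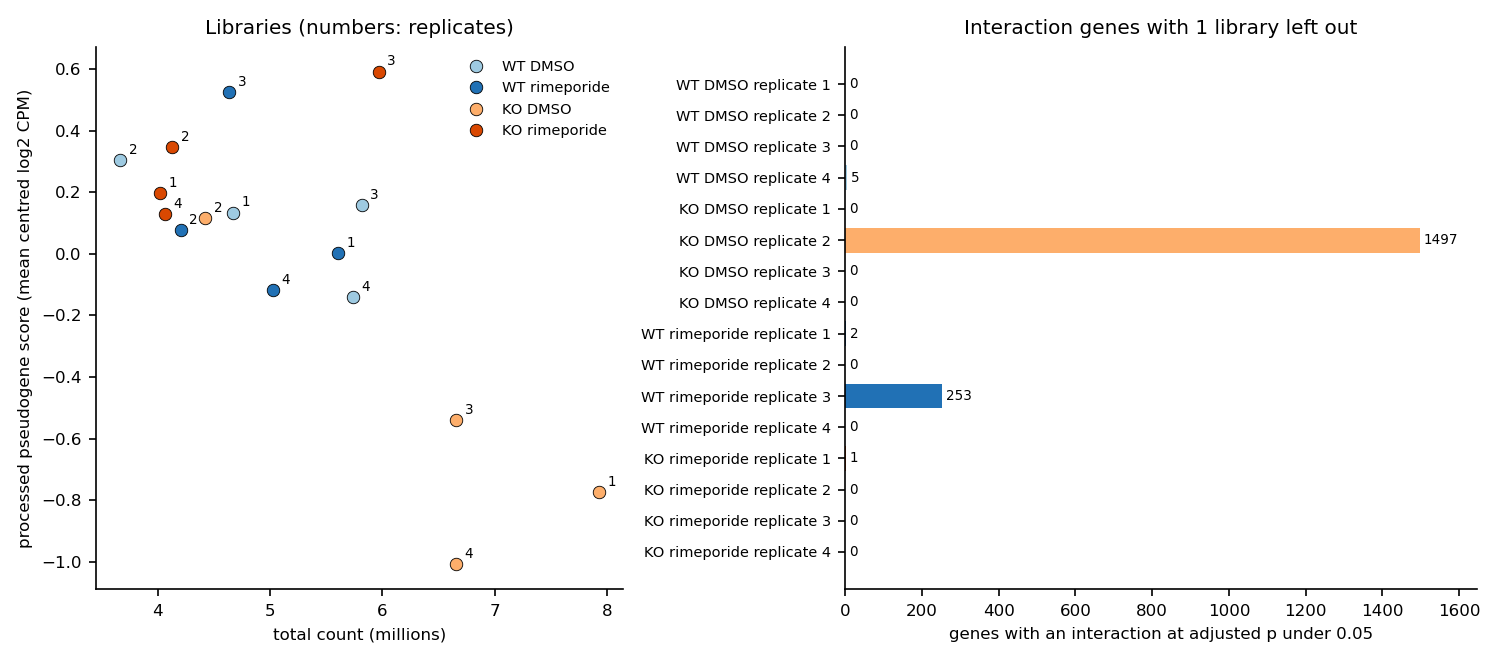
Left: processed pseudogene score (mean centred log2 CPM) against total count for the 16 libraries, numbered by replicate. KO DMSO replicates 1, 3 and 4 lie at -0.54 and below and replicate 2 at 0.12. Right: number of genes with an interaction at an adjusted p under 0.05 when the named library is left out, which is 1497 without KO DMSO replicate 2, 253 without WT rimeporide replicate 3 and at most 5 without any other library.

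Of 12272 genes tested, Fbxo34 and Ncaph2 had an interaction that passed at an adjusted p under 0.05 (edgeR quasi-likelihood test, Benjamini-Hochberg adjustment), both positive, which is 0.0163% of genes. At an unadjusted p under 0.05, 1233 interactions were positive (10.0%) and 1044 negative (8.51%). The third gene stood at an adjusted p of 0.0952, a value shared by 216 genes. The count of 2 depended on the method and on the libraries. It was 269 with DESeq2, 166 with limma-voom, 630 with no filter on low counts, and 0 with the pseudogene or the neural marker score as a covariate, where edgeR gave 527 and 2294 genes at an unadjusted p under 0.05. With a library left out, it was 1497 without KO DMSO replicate 2 (882 positive, 7.04% of 12520 genes, and 615 negative, 4.91%), 253 without WT rimeporide replicate 3, 5 without WT DMSO replicate 4, 2 without WT rimeporide replicate 1 and 1 without KO rimeporide replicate 1. It was 0 without any one of the other 11 libraries, which are WT DMSO replicates 1 to 3, KO DMSO replicates 1, 3 and 4, WT rimeporide replicates 2 and 4, and KO rimeporide replicates 2 to 4. The plot of genes called with 1 library left out shows these counts beside the pseudogene score.

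Fbxo34 (ENSMUSG00000037536.15, chromosome 14) encodes an F-box protein, a class that picks the targets of SCF ubiquitin ligases. Its level was 47.7, 50.7, 54.7 and 45.7 CPM in WT DMSO replicates 1 to 4 and 40.4, 35.7, 38.2 and 33.7 CPM in WT rimeporide. In KO it was 30.9, 33.2, 30.8 and 24.6 CPM with DMSO and 44.9, 45.2, 40.9 and 40.1 CPM with rimeporide. The DMSO and rimeporide libraries did not overlap in either genotype, and they were ordered oppositely. Of all tested genes, 6.72% had every KO rimeporide library above every KO DMSO library, and 1.76% had every WT rimeporide library below every WT DMSO library. Group means were 49.7 ± 3.94 CPM (SD, n = 4) and 37.0 ± 2.92 CPM in WT and 29.9 ± 3.69 CPM and 42.8 ± 2.63 CPM in KO. Fbxo34 rose in KO by 0.52 ± 0.11 (log2, ± SE, adjusted p = 0.00553), and its difference in WT was -0.42 ± 0.11 (adjusted p = 0.433). The interaction was 0.94 ± 0.16 (adjusted p = 0.0368), a 1.93-fold ratio of the drug's effects with a 95% interval of 1.53 to 2.42. Seen as genotype differences, KO was lower than WT in DMSO (-0.74 ± 0.11, adjusted p = 4.84e-05) and differed by 0.21 ± 0.11 in rimeporide (adjusted p = 0.358).

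Ncaph2 (ENSMUSG00000008690.16, chromosome 15) encodes a subunit of condensin II, a ring complex that compacts chromosomes. Its level was 45.8, 52.4, 51.1 and 47.6 CPM in WT DMSO and 42.1, 37.4, 38.7 and 33.9 CPM in WT rimeporide. In KO it was 32.4, 34.4, 37.5 and 32.6 CPM with DMSO and 41.7, 61.6, 56.7 and 48.3 CPM with rimeporide. Again neither genotype's groups overlapped and WT was lower and KO higher with the drug. Means were 49.2 ± 3.05 CPM and 38.0 ± 3.41 CPM in WT and 34.2 ± 2.34 CPM and 52.1 ± 8.84 CPM in KO. Ncaph2 rose in KO by 0.61 ± 0.12 (adjusted p = 0.00383) against -0.37 ± 0.12 in WT (adjusted p = 0.654). The interaction was 0.98 ± 0.17 (adjusted p = 0.0368), a ratio of 1.97 with an interval of 1.55 to 2.51. KO was lower than WT in DMSO (-0.52 ± 0.12, adjusted p = 0.0031) and higher in rimeporide (0.46 ± 0.12, adjusted p = 0.0168).

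The size of both interactions moved little when libraries were left out, from 0.86 to 0.99 for Fbxo34 and from 0.89 to 1.07 for Ncaph2, while their adjusted p ran from 0.000449 to 0.152 and from 0.000851 to 0.178. Fbxo34 passed in 4 and Ncaph2 in 5 of the 16 fits with a library left out. With that pseudogene score as a covariate, the interactions were 0.73 and 0.81 and neither passed (adjusted p = 0.762 for both), and with the neural marker score as a covariate the adjusted p was 0.0514 for both. KO DMSO replicate 2 was the highest of its group for Fbxo34 (33.2 CPM) and second to replicate 3 for Ncaph2 (34.4 CPM), and in both it lay below every KO rimeporide library.

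The promoters of the passing pair are shown because these are the genes that passed, with GC boxes (GGGCGG, either strand) and the CRE (TGACGTCA) in capitals. Each runs from 250 bases before to 50 after the RefSeq start, on the plus strand of GRCm38.p6, a build other than that of the counts. Fbxo34 lies at chr14:47472311-47472610 and Ncaph2 at chr15:89355469-89355768.
Fbxo34: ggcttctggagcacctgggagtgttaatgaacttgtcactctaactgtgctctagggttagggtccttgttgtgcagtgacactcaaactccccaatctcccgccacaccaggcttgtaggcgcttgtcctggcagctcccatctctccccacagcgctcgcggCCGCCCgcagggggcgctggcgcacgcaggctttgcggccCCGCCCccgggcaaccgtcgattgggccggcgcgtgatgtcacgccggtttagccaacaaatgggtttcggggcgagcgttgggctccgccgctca
Ncaph2: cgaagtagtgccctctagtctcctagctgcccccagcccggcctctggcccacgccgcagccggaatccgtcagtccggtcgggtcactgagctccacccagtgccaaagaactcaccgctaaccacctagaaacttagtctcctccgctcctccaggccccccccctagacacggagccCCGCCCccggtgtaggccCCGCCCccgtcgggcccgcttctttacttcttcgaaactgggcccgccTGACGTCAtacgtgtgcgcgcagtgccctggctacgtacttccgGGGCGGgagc
The Fbxo34 window held 2 GC boxes and the Ncaph2 window 3. At least 1 GC box occurs in 35.7% and at least 2 in 19.5% of the 32851 promoters of this length. The Ncaph2 window also held 1 CRE, found in 1.79% of promoters, and the Fbxo34 window none. The E-box CACGTG, found in 7.15%, was in neither window, and CCAAT (either strand), found in 37.4%, occurred at 2 places in Fbxo34 and none in Ncaph2. GC content was 64.3% for Fbxo34 and 67% for Ncaph2, against a median of 52.7%.

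To describe genes near the threshold, those with a gene name, a mean of at least 5 CPM and the smallest p were taken until there were 30. The 28 beyond Fbxo34 and Ncaph2 did not pass and share the adjusted p of 0.0952. Of the 30, 15 were positive and 15 negative, and the 7 pseudogenes passed over on the way were all positive. In 29 of the 30 the estimates in WT and KO had opposite signs, which picking genes by the difference of these estimates favours. All 30 passed with rimeporide in KO, where 8.43% of genes rose and 6.35% fell, and none in WT, where 0% passed. The rule used this contrast, so these counts describe the genes and carry no test. KO and WT differed in DMSO for 27 of the 30 (18.6% of all genes) and in rimeporide for 8 (7.46% of all genes), with median absolute log2 differences of 0.63 and 0.30. In 28 of the 30 genes KO DMSO replicate 2 was the KO DMSO library nearest to the KO rimeporide mean. It was so for 41.8% of all 12272 genes and 76.7% of the 2277 genes with an unadjusted interaction p under 0.05. Without that library all 30 passed, the largest adjusted p being 0.0132, and 29 estimates were larger. In that fit 7.04% of all genes passed as positive and 4.91% as negative. Since the 30 were chosen by this contrast, these counts carry no test either.

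**Figure D2:**
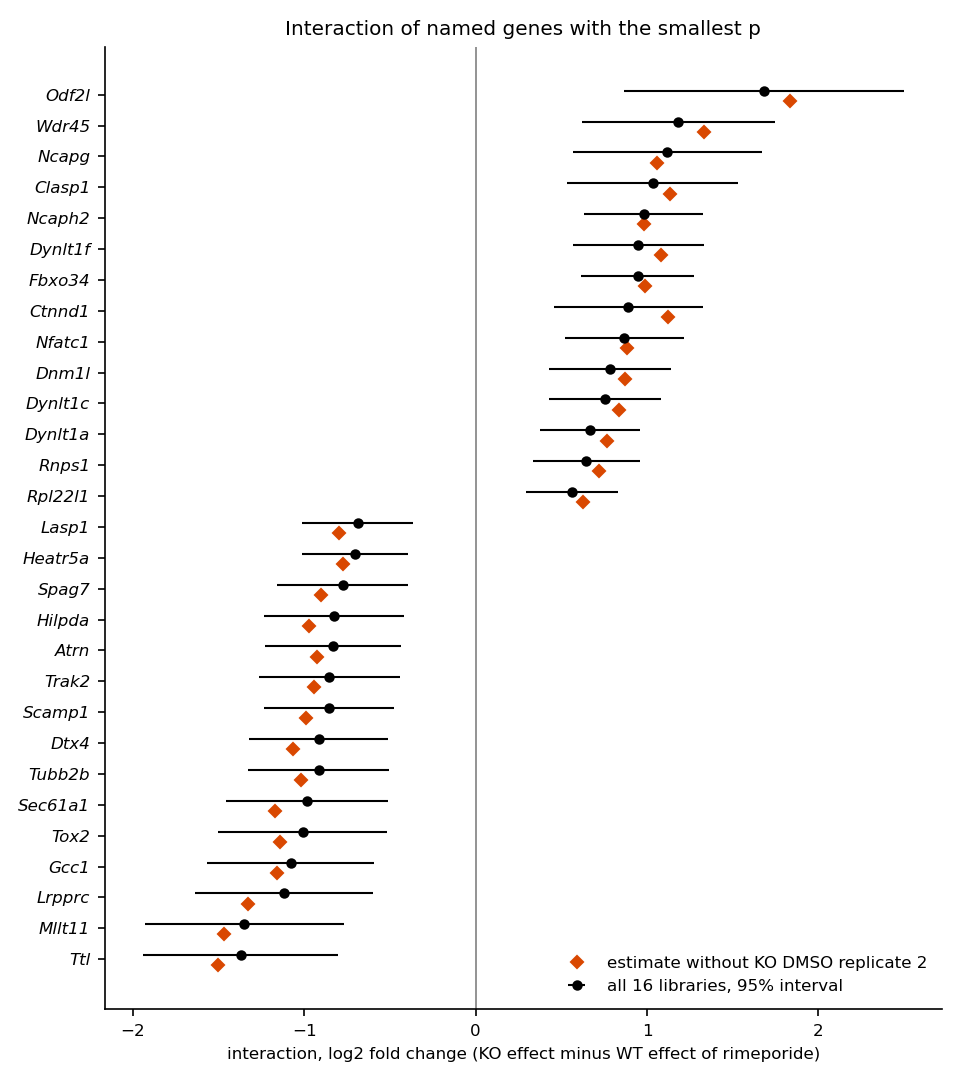
Interaction (log2 fold change, KO effect minus WT effect of rimeporide) of 29 of the 30 genes with the smallest p. Black points and lines are the estimate and 95% interval from 16 libraries, and diamonds the estimate without KO DMSO replicate 2, which lies farther from 0 for 28 of these 29 genes.

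Nfatc1, a transcription factor switched on by calcium through calcineurin, had a pattern like the passing pair. It stood at 38.9, 35.3, 30.5 and 28.2 CPM in WT DMSO and 26.1, 22.8, 25.04 and 23.3 CPM in WT rimeporide. In KO it was 24.7, 26.2, 26.1 and 23.2 CPM with DMSO and 35.9, 32.4, 34.1 and 31.9 CPM with rimeporide. Neither genotype's groups overlapped and the KO DMSO libraries were close together. The interaction was 0.87 ± 0.17 (adjusted p = 0.0952). Nfatc1 was lower in KO than WT in DMSO (-0.40 ± 0.12, adjusted p = 0.0184) and higher in rimeporide (0.46 ± 0.12, adjusted p = 0.0156). Ncapg, a subunit of condensin I, had 13.2, 9.37, 11.6 and 8.58 CPM in WT DMSO and 7.93, 7.53, 6.37 and 10.6 CPM in WT rimeporide. It had 9.47, 8.19, 11.5 and 8.90 CPM in KO DMSO and 15.1, 14.5, 18.2 and 15.2 CPM in KO rimeporide, the highest group. It differed by -0.16 ± 0.19 between genotypes in DMSO (adjusted p = 0.606) and was higher in KO in rimeporide (0.96 ± 0.19, adjusted p = 0.00158). Its interaction was 1.12 ± 0.27.

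Among microtubule genes, Ttl, the ligase that adds tyrosine back to alpha-tubulin, stood at 17.0, 11.3, 13.7 and 21.4 CPM in WT DMSO and 18.7, 18.7, 14.5 and 20.4 CPM in WT rimeporide. It stood at 36.1, 20.2, 26.2 and 35.9 CPM in KO DMSO and 14.1, 12.0, 12.7 and 13.5 CPM in KO rimeporide. The high libraries were KO DMSO replicates 1, 3 and 4, while replicate 2 was within the range of WT. Ttl fell in KO by 1.19 on the log2 scale (SE 0.19, adjusted p = 0.00285) with 0.18 ± 0.20 in WT, and its interaction was -1.37 ± 0.28. Tubb2b, a beta-tubulin rich in neurons, had 131, 124, 133 and 171 CPM in WT DMSO and 154, 137, 114 and 167 CPM in WT rimeporide. It had 522, 394, 458 and 640 CPM in KO DMSO and 296, 314, 217 and 264 CPM in KO rimeporide, so every KO library lay above every WT library. Its interaction was -0.92 ± 0.20. The neuron markers were higher in KO too, but summed to 42.4 to 79.2 CPM in KO DMSO and 47.2 to 68.0 CPM in KO rimeporide, and their part in the Tubb2b values was not tested. Clasp1, which holds microtubule plus ends, was positive at 1.03 ± 0.24, with 29.6, 53.0, 44.8 and 28.7 CPM in KO rimeporide against 22.9, 31.2, 26.2 and 21.1 CPM in KO DMSO, groups that overlapped. Its WT groups, whose levels are not listed here, did not overlap, as in 3.33% of all genes.

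The dynein light chain genes Dynlt1a, Dynlt1c and Dynlt1f on chromosome 17 were all among the 30 and all positive. Dynlt1f had 72.0, 93.5, 81.1 and 66.0 CPM in WT DMSO and 66.8, 71.9, 83.2 and 60.6 CPM in WT rimeporide. It had 43.9, 63.0, 48.0 and 41.8 CPM in KO DMSO and 94.9, 84.9, 85.4 and 76.5 CPM in KO rimeporide, where KO DMSO replicate 2 was the highest of its group and still below the drug group. Interactions were 0.95 ± 0.19 for Dynlt1f, 0.75 ± 0.16 for Dynlt1c and 0.67 ± 0.14 for Dynlt1a. The remaining copy Dynlt1b, looked at after the values of the others were seen, was at 1.18 ± 0.34 (adjusted p = 0.0995). The last 300 bases of Dynlt1b and Dynlt1f were 99.3% identical and the other pairs 56.7% to 63.7% over the aligned bases in GENCODE transcripts, so counts of Dynlt1b and Dynlt1f are uncertain and these copies are not independent. The rest of the transcripts was not compared, so Dynlt1a and Dynlt1c may not be independent of them either.

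Mllt11, first described as a fusion partner in leukaemia, was low in WT DMSO at 5.88, 5.79, 6.58 and 5.95 CPM and higher in every WT rimeporide library at 7.93, 10.4, 7.47 and 9.80 CPM. In KO it had 15.4, 9.33, 14.5 and 12.5 CPM with DMSO and 6.78, 8.84, 6.35 and 8.22 CPM with rimeporide. The WT difference was 0.55 ± 0.20 (adjusted p = 0.748), the KO difference -0.80 ± 0.19 (adjusted p = 0.00879) and the interaction -1.35 ± 0.28. Heatr5a, a protein of HEAT repeats, did likewise on a smaller scale, with -0.70 ± 0.15. It was higher in KO than WT in DMSO (0.31 ± 0.10, adjusted p = 0.0434) and lower in rimeporide (-0.40 ± 0.11, adjusted p = 0.0209).

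**Figure D3:**
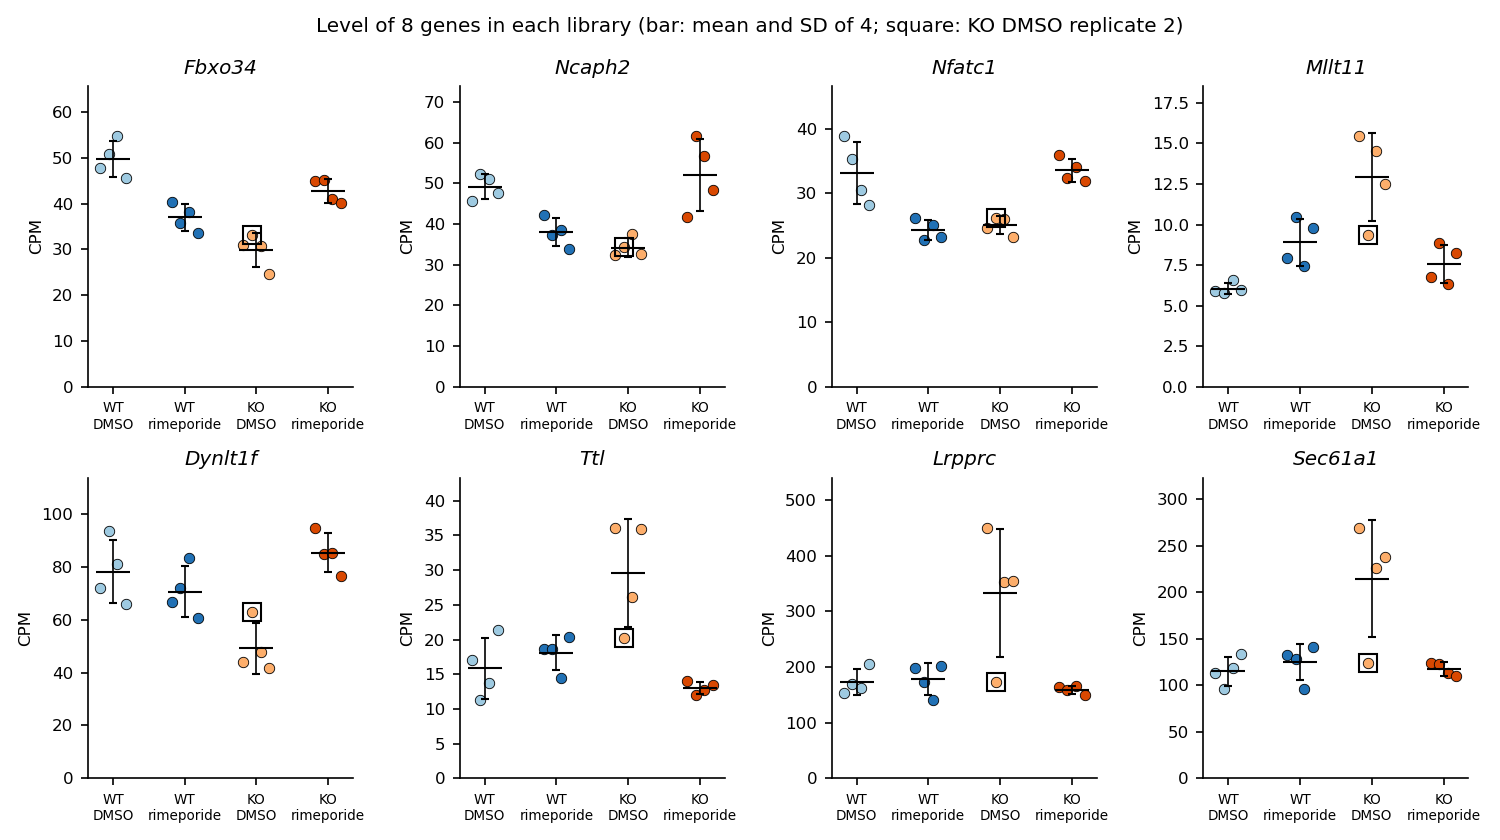
Level in CPM of 8 genes in each library, by group, with the mean and SD of 4 libraries and KO DMSO replicate 2 in a square. In Fbxo34, Ncaph2 and Nfatc1 the square lies among its group, and in Mllt11, Ttl, Lrpprc and Sec61a1 it lies below the other 3 KO DMSO libraries, at 9.33, 20.2, 173 and 124 CPM.

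Lrpprc, which stabilises mitochondrial mRNAs, had 154, 169, 163 and 206 CPM in WT DMSO, 199, 173, 141 and 202 CPM in WT rimeporide and 164, 159, 165 and 149 CPM in KO rimeporide. In KO DMSO it had 451, 173, 354 and 354 CPM. The high values were thus 3 libraries, and the 4th lay within the WT range. Its interaction was -1.12 ± 0.25, and -1.33 without KO DMSO replicate 2 (adjusted p = 7.42e-05). Sec61a1, the channel subunit through which proteins enter the endoplasmic reticulum, had 269, 124, 226 and 238 CPM in KO DMSO and 95.9 to 141 CPM in the other 12 libraries, with an interaction of -0.99 ± 0.23.

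Other negative members were Scamp1 of secretory carrier membranes (-0.86 ± 0.18), the golgin Gcc1 (-1.08 ± 0.23), Trak2, which links mitochondria to kinesin (-0.85 ± 0.20), and Atrn, the receptor-like attractin (-0.83 ± 0.19). So were Lasp1, an actin-binding protein (-0.69 ± 0.16), Dtx4, a Deltex ubiquitin ligase (-0.92 ± 0.20), Tox2, an HMG-box protein (-1.01 ± 0.24), and Spag7 (-0.78 ± 0.18). Hilpda, a lipid droplet protein that restrains triglyceride breakdown, was at -0.83 ± 0.20. All of these fell in KO, by 0.56 to 0.92 on the log2 scale, with WT estimates from 0.00 to 0.21 in size, and in each KO DMSO replicate 2 was the lowest KO DMSO library.

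Other positive members were Dnm1l, the GTPase that divides mitochondria (0.78 ± 0.17), Wdr45, an autophagy protein (1.18 ± 0.27), Rnps1, an RNA-binding protein of the exon junction complex (0.65 ± 0.15), and Rpl22l1, a paralogue of the ribosomal protein Rpl22 (0.56 ± 0.13). Rpl22l1 differed by 0.03 ± 0.09 between genotypes in DMSO (adjusted p = 0.866) and was higher in KO in rimeporide (0.59 ± 0.09, adjusted p = 0.000114). Odf2l had the largest estimate of the 30, 1.68 ± 0.39, at a level of 3.11 to 10.7 CPM. Ctnnd1, p120 catenin, which steadies cadherins, was at 0.89 ± 0.21. Its KO DMSO libraries had 200, 342, 183 and 215 CPM, of which replicate 2 lay inside the KO rimeporide range of 325 to 431 CPM.

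Grn itself, measured by the tags that remain in KO, was at 10.7, 15.2, 12.1 and 12.4 CPM in KO DMSO and 13.8, 13.7, 24.2 and 18.4 CPM in KO rimeporide, groups that overlapped. Its interaction was 0.62 ± 0.18 (adjusted p = 0.0976).

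The genes were also described by lists, none of whose members passed the interaction over all 16 libraries, although members of many did without KO DMSO replicate 2. For all libraries, interaction counts are given at an unadjusted p under 0.05 and read against 10.0% positive and 8.51% negative of all genes, whose median interaction was -0.01. Members said to have risen or fallen in KO passed there at an adjusted p under 0.05, where 8.43% of all genes rose and 6.35% fell. The processed pseudogenes had the largest median, 0.88. Of 933 tested, 497 were positive (53.3%) and 1 negative, 504 rose with rimeporide in KO and 1 fell, and their median was 0.92 in KO and 0.02 in WT. Without KO DMSO replicate 2, 441 were positive and 2 negative at an adjusted p under 0.05. Ribosomal proteins, the most common parents of such copies, had 21 of 75 positive (28%) and 2 negative, with a median of 0.12, and 33 rose and none fell in KO. Rpl10 had 612, 1080, 655 and 556 CPM in KO DMSO and 1061 to 1266 CPM in KO rimeporide, so KO DMSO replicate 2 again lay with the drug group. Rpl10 was at 0.84 ± 0.22, Rps28 at 0.40 ± 0.12 and Rpl22 at 0.42 ± 0.14. With the pseudogene score in the model, the ribosomal median was -0.05. Reads of a gene and its copies may be split in counting, so these values are uncertain.

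Cytoskeleton and adhesion genes had 9 of 22 negative (40.9%) and 1 positive, with a median of -0.43. In KO 8 fell and 2 rose, and in WT the median was 0.12. Tuba1a, an alpha-tubulin of the growing nervous system, fell in KO by 0.55 on the log2 scale (SE 0.08) and had an interaction of -0.46 ± 0.12. The tubulins counted in the cell cycle list, Tuba1b (-0.44 ± 0.15) and Tubb5 (-0.35 ± 0.12), were negative too, whereas the spindle protein Prc1 was at 0.60 ± 0.20. Over 40 cell cycle genes 5 were positive and 3 negative, with a median of 0.03.

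The genes encoded in mitochondrial DNA had 7 of 13 negative (53.8%) and none positive, with medians of -0.28 for the interaction, 0.17 in WT and -0.13 in KO. They are transcribed from shared promoters, so they are not independent. mt-Nd4, a complex I subunit, had 2185, 1160, 2231 and 1943 CPM in KO DMSO and 1294 to 1513 CPM in KO rimeporide, against 1264 to 1528 CPM in WT DMSO and 1456 to 1728 CPM in WT rimeporide. Its interaction was -0.70 ± 0.18. mt-Nd2 (-0.46 ± 0.15) and mt-Co1 of complex IV (-0.41 ± 0.14) were on the same side. Nuclear genes of oxidative phosphorylation did not share it, with 8 of 48 positive (16.7%), 2 negative and a median of 0.00. The complex I subunit Ndufs1 was at 0.50 ± 0.12, with 77.1, 85.8, 77.1 and 79.8 CPM in KO DMSO and 100 to 116 CPM in KO rimeporide. Ndufa7 (0.39 ± 0.14) and Ndufa3 (0.40 ± 0.15) were positive as well.

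Interferon-stimulated genes had 7 of 45 positive (15.6%) and none negative, with a median of 0.54. Both genotypes had negative medians, -1.002 in WT and -0.50 in KO, where 6 fell and none rose. The list score was 1.15, 0.48, -0.34 and 0.94 in WT DMSO and -0.61 to -0.17 in WT rimeporide. It was 0.18, 0.87, -0.09 and -0.16 in KO DMSO and -0.71 to 0.05 in KO rimeporide. The high libraries were WT DMSO replicates 1, 2 and 4 and KO DMSO replicate 2, so both DMSO groups were split. The chemokine gene Cxcl10 was highest in WT DMSO replicate 4 alone, with 2.52, 6.34, 1.56 and 45.3 CPM in WT DMSO. It had 0.41 to 2.47 CPM in WT rimeporide, 1.36 to 9.78 CPM in KO DMSO and 1.00 to 15.5 CPM in KO rimeporide. Its interaction was 3.78 ± 1.32 (adjusted p = 0.137), and the estimate ran from 1.61 to 4.72 with a library left out. Irf7, a regulator of interferon genes, had 55.4, 12.7, 7.45 and 30.8 CPM in WT DMSO and an interaction of 2.07 ± 0.75, and Xaf1, an interferon-induced gene tied to cell death, one of 0.82 ± 0.30. The list median was 0.34 without WT DMSO replicate 1, 0.81 without KO DMSO replicate 2 and 0.10 with the pseudogene covariate.

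Antigen presentation (MHC) genes had 3 of 12 positive and none negative, with a median of 0.38. The class I gene H2-K1 had 1884, 1274, 1303 and 1555 CPM in WT DMSO and 967 to 1262 CPM in WT rimeporide, and 1011, 1695, 977 and 905 CPM in KO DMSO and 1316 to 1529 CPM in KO rimeporide. KO DMSO replicate 2 was the highest KO library, and the interaction was 0.71 ± 0.21 (adjusted p = 0.103). The costimulator Cd86 was at 0.56 ± 0.25 and the immunoproteasome subunit Psmb8 at 0.37 ± 0.17. Of 23 NF-kB inflammatory genes 2 were positive and 1 negative. These were the subunits Nfkb2 (0.79 ± 0.24) and Nfkb1 (0.50 ± 0.17), and Il1rn, the interleukin 1 receptor antagonist (-0.66 ± 0.18).

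Of 27 disease-associated microglia genes, which rise in microglia around plaques, 1 was positive and 4 negative (14.8%), with a median of 0.00. Lilrb4a, an inhibitory receptor, rose in KO (0.90 ± 0.16, adjusted p = 0.00369) and was at 0.74 ± 0.23 for the interaction, while the tetraspanin Cd9 (-0.44 ± 0.14) and the lipase Lpl (-0.30 ± 0.11) were negative. None of 17 homeostatic genes reached p under 0.05, the nearest being the phagocytic receptor Mertk (-0.29 ± 0.15), the transcription factor Mef2c (0.29 ± 0.15) and Tgfbr1 (-0.24 ± 0.15). Of 15 complement and Fc receptor genes 1 was positive and none negative, with C3ar1 (-0.19 ± 0.09), the receptor for C3a, and C3 (1.09 ± 0.59) next. Of 11 border macrophage and scavenger receptor genes the scavenger receptor Msr1 (-0.36 ± 0.13) and the mannose receptor Mrc1 (-0.33 ± 0.13) were negative, and Cd36 stood at 0.24 ± 0.13.

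Lysosomal acidification is named in the title of the series. Of 46 lysosomal hydrolases 4 were positive and 8 negative (17.4%), with a median of -0.01 and a range of -0.47 to 0.42. Hexa, a subunit of beta-hexosaminidase, had 757, 551, 680 and 711 CPM in KO DMSO and 489 to 574 CPM in the other 12 libraries, and was at -0.38 ± 0.11. Galns, a sulfatase, was at -0.47 ± 0.15 and the peptidase Dpp7 at 0.42 ± 0.14. Of 29 lysosomal membrane proteins 1 was positive and 4 negative, and 7 fell and 1 rose in KO. Laptm4a was at -0.48 ± 0.15, the glucocerebrosidase receptor Scarb2 at -0.39 ± 0.14 and Rnf13 at 0.30 ± 0.10. Of 10 tested genes of progranulin and its partners, Psap, whose product prosaposin binds progranulin, was at 0.26 ± 0.11, and Lrp1, a receptor that takes up prosaposin, at -0.50 ± 0.13.

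Of 18 subunits of the V-ATPase, the pump that acidifies lysosomes, 4 were negative (22.2%) and none positive, with a median of -0.04 and a range of -0.57 to 0.37, and 3 fell in KO. Atp6v1b2 had 1390, 885, 1177 and 1327 CPM in KO DMSO and 773 to 979 CPM in the other 12 libraries, and was at -0.57 ± 0.14 (adjusted p = 0.0952). Atp6v0d2 (-0.46 ± 0.15) and the accessory subunit Atp6ap2 (-0.39 ± 0.15) were next. Of 24 genes of proton, sodium and lysosomal ion transport 1 was positive and 1 negative, the chloride-proton exchangers Clcn3 (0.35 ± 0.13) and Clcn5 (-0.37 ± 0.15). The bicarbonate transporter Slc4a7 was at 0.39 ± 0.19, and the list ranged from -0.78 to 0.65. Over all genes tested the median size of the interaction, sign disregarded, was 0.26. Of 25 TFEB family and autophagy genes 1 was positive, the GTPase Rragd (0.39 ± 0.17), and 1 negative, the autophagy kinase Ulk1 (-0.91 ± 0.25). Ulk1 fell in KO by 0.98 on the log2 scale, from 75.9, 35.3, 56.0 and 77.9 CPM to 27.4 to 34.4 CPM. Gabarap was at 0.22 ± 0.11.

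Of 24 sterol synthesis and uptake genes 1 was positive and 4 negative. The synthesis enzyme Cyp51 was at -0.50 ± 0.20 and Hsd17b7 at -0.55 ± 0.22. Of 15 LXR target and export genes the sterol exporter Abca1 (-0.43 ± 0.17) was the single one under 0.05, and the lipid carrier Apoe was at 0.27 ± 0.15 and the LXR gene Nr1h2 at 0.53 ± 0.35. Of 23 fatty acid and lipid droplet genes 6 were negative (26.1%) and 2 positive, and 4 fell in KO. Beside Hilpda, the fatty acid binding proteins Fabp3 (-0.66 ± 0.20) and Fabp4 (-0.38 ± 0.13) were negative. Fabp3 fell in KO from 58.8, 40.0, 54.6 and 64.6 CPM to 28.7 to 35.4 CPM.

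Of 24 immediate early genes 7 were negative (29.2%) and 1 positive, with a median of -0.23, and 6 fell in KO. Fosl2, a Fos family factor, had 39.9, 35.0, 40.6 and 43.9 CPM in KO DMSO and 25.9 to 28.7 CPM in KO rimeporide, with 32.3 to 45.7 CPM in WT. Its interaction was -0.64 ± 0.16, and those of Ier3 and Klf6 were -0.79 ± 0.26 and -0.46 ± 0.16. Of 29 chaperone genes of the endoplasmic reticulum and heat shock response 6 were negative (20.7%), among them Sdf2l1 (-0.70 ± 0.21), the mitochondrial chaperonin Hspd1 (-0.43 ± 0.13) and Dnajb9 (-0.45 ± 0.19). Of 20 genes of the ATF4 stress response none reached p under 0.05. The nearest were Psph of serine synthesis (-0.37 ± 0.19), the amino acid transporter Slc7a5 (-0.54 ± 0.31) and Ddit3 (0.51 ± 0.30).

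Of 24 NRF2 antioxidant genes 4 were positive and 3 negative. Srxn1, which repairs peroxiredoxins, was at -0.62 ± 0.17, Pgd of the pentose phosphate pathway at -0.42 ± 0.14 and the heme oxygenase Hmox1, also counted with iron, at 0.50 ± 0.18. Of 13 iron handling genes 2 were positive, Hmox1 and the ferritin light chain Ftl1 (0.41 ± 0.19), and the heavy chain Fth1 was at 0.34 ± 0.17. Of 23 glycolysis and hypoxia genes 4 were negative and none positive. Adm, the peptide adrenomedullin induced by low oxygen, had 12.7, 3.87, 11.0 and 11.3 CPM in KO DMSO and 3.19 to 6.23 CPM in KO rimeporide, with 5.71 to 12.2 CPM in WT. Its interaction was -1.72 ± 0.43, and Pgam1 (-0.44 ± 0.13) and Pdk1 (-0.30 ± 0.13) were smaller.

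Without KO DMSO replicate 2 members of many lists passed at an adjusted p under 0.05, where 7.04% of all genes were positive and 4.91% negative. That library was nearest to the KO rimeporide mean for 41.8% of all genes, more than any other KO DMSO library. Leaving it out therefore widens many KO differences, so the list counts of this fit are descriptive and carry no test. Of 22 cytoskeleton and adhesion genes 8 were negative and 2 positive, and of 13 mitochondrially encoded genes 7 were negative. Of 75 ribosomal proteins 14 were positive and 2 negative, and of 48 nuclear oxidative phosphorylation genes 4 and 2. Interferon-stimulated genes had 6 of 45 positive, MHC genes 1 of 12 positive, and NF-kB genes 2 of 23 positive and 1 negative.

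In the same fit, 5 of 18 V-ATPase subunits were negative and none positive. Of 46 lysosomal hydrolases 2 were positive and 4 negative, of 29 lysosomal membrane proteins 1 and 4, and of 24 ion transport genes 1 and 1. Of 25 TFEB family and autophagy genes 1 was negative, and of 10 genes of progranulin and its partners 2 were positive and 1 negative. Fatty acid and lipid droplet genes had 5 of 23 negative, sterol genes 1 of 24 and LXR target genes 1 of 15, with none positive. Immediate early genes had 5 of 24 negative and chaperones 3 of 29, also with none positive. NRF2 genes had 3 positive and 3 negative of 24, iron genes 2 of 13 positive, glycolysis and hypoxia genes 1 positive and 2 negative of 23, and cell cycle genes 2 and 2 of 40. Disease-associated microglia genes had 1 positive and 2 negative of 27, complement and Fc receptor genes 1 of 15 positive, and scavenger receptor genes 2 of 11 negative. Among markers of cell types 1 of 5 fibroblast, endothelial and mural genes was negative, and no homeostatic, ATF4 or other marker gene passed.

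Markers of other cell types gave few interactions, at low levels. Of 5 tested neuron markers Dcx was negative (-1.19 ± 0.53), and Gap43 (-1.83 ± 1.22) and Syt1 (-0.47 ± 0.78) had wide errors. None of 9 astrocyte markers reached p under 0.05, with Gfap (-1.02 ± 0.60), Slc1a3 (-0.95 ± 0.75) and Atp1b2 (-0.69 ± 0.60) nearest. Of 7 oligodendrocyte lineage markers 1 was positive and none negative, and Pdgfra (1.62 ± 0.97) and Olig2 (-1.41 ± 1.06) did not reach it. Of 5 fibroblast, endothelial and mural markers the collagens Col1a1 (-2.11 ± 0.63) and Col1a2 (-1.30 ± 0.62) were negative and Flt1 was at -0.40 ± 0.25. Those markers summed to 30.6 to 53.9 CPM in WT and 39.2 to 67.0 CPM in KO. Of 8 markers of lymphocytes, granulocytes and mast cells, Kit (0.66 ± 0.87) and S100a8 (0.35 ± 0.52) were tested, and they summed to at most 7.47 CPM. The microglial markers Trem2 (0.26 ± 0.14), C1qa (-0.21 ± 0.12) and Aif1 (0.27 ± 0.18) had the smallest p of 10. Mog was at 0 in all KO DMSO libraries and Cldn5 in all KO DMSO and WT rimeporide libraries. Fewer cells of a type and less RNA per cell cannot be told apart in these bulk samples.

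**Figure D4:**
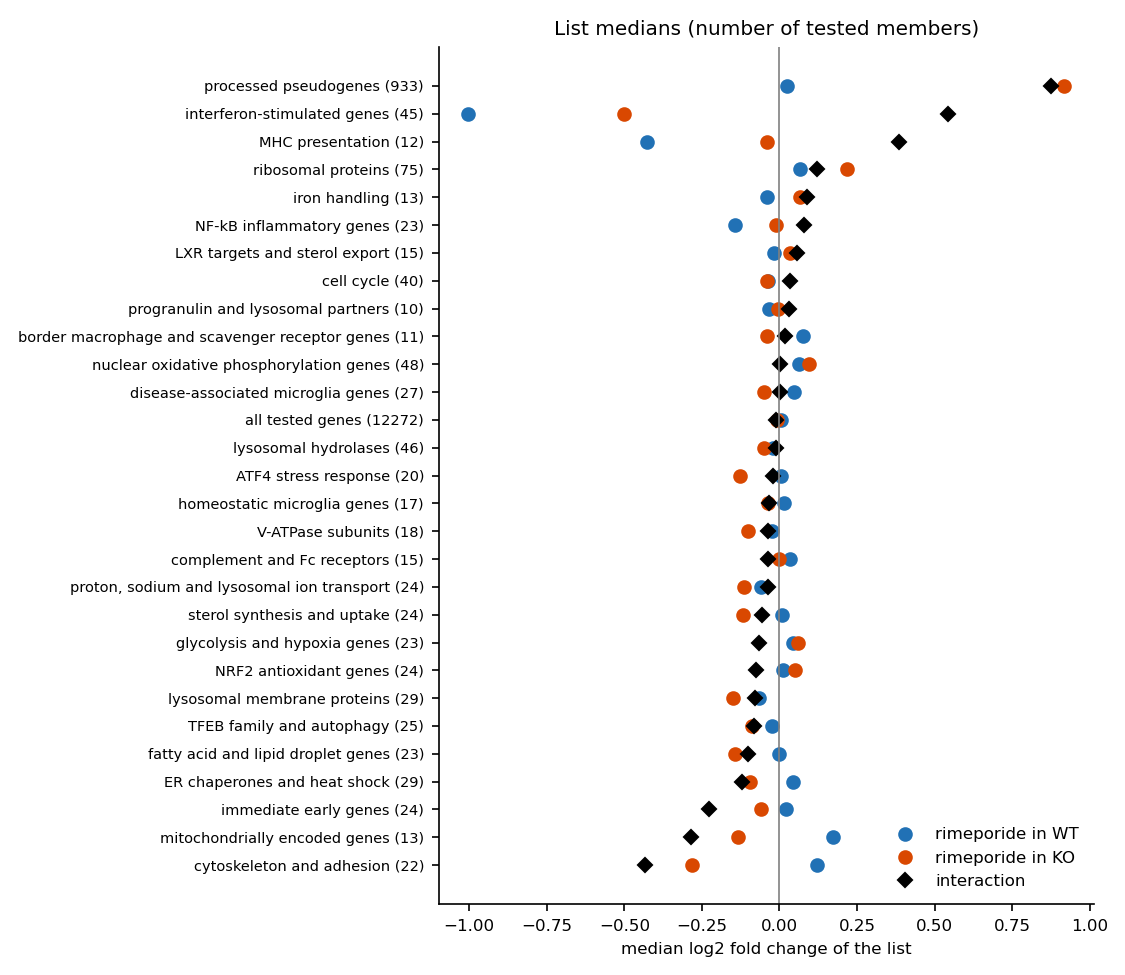
Median log2 fold change of each gene list for rimeporide in WT, rimeporide in KO and the interaction, with the number of tested members. The processed pseudogenes lie at 0.88 and the interferon-stimulated genes at 0.54 for the interaction, and the cytoskeleton and adhesion genes at -0.43.

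With rimeporide 1034 genes rose and 779 fell in KO, while no gene passed in WT with edgeR or limma-voom and 6 did with DESeq2, all lower. In WT 676 of the 12272 genes tested had an unadjusted p under 0.05, 293 higher and 383 lower, with no allowance for the number tested. The KO count was 643 without KO DMSO replicate 4, 751 without KO DMSO replicate 1, 754 without KO rimeporide replicate 3, 1195 without KO rimeporide replicate 2 and 3002 without KO DMSO replicate 2. With the pseudogene covariate it was 1. The WT count was 40 without WT DMSO replicate 3 and 12 without KO DMSO replicate 2, all lower. The effects in WT and KO share no library. Across all 12272 genes, which are not independent, they were correlated with Pearson's r = 0.08 and Spearman's rho = 0.07, and r was 0.12 over the 9704 genes with a mean of at least 5 CPM. The SD of the log2 effects over those genes was 0.21 in WT and 0.37 in KO. Genes that rose in KO had a median of 0.76 in KO and 0.04 in WT, where 60.3% were above 0, against 51.5% of all genes tested. Of the genes that rose, 504 (48.7%) were processed pseudogenes, against 7.60% of all genes tested. Genes that fell in KO had medians of -0.47 and -0.02, with 41.3% above 0 in WT, and 1 was a processed pseudogene.

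**Figure D5:**
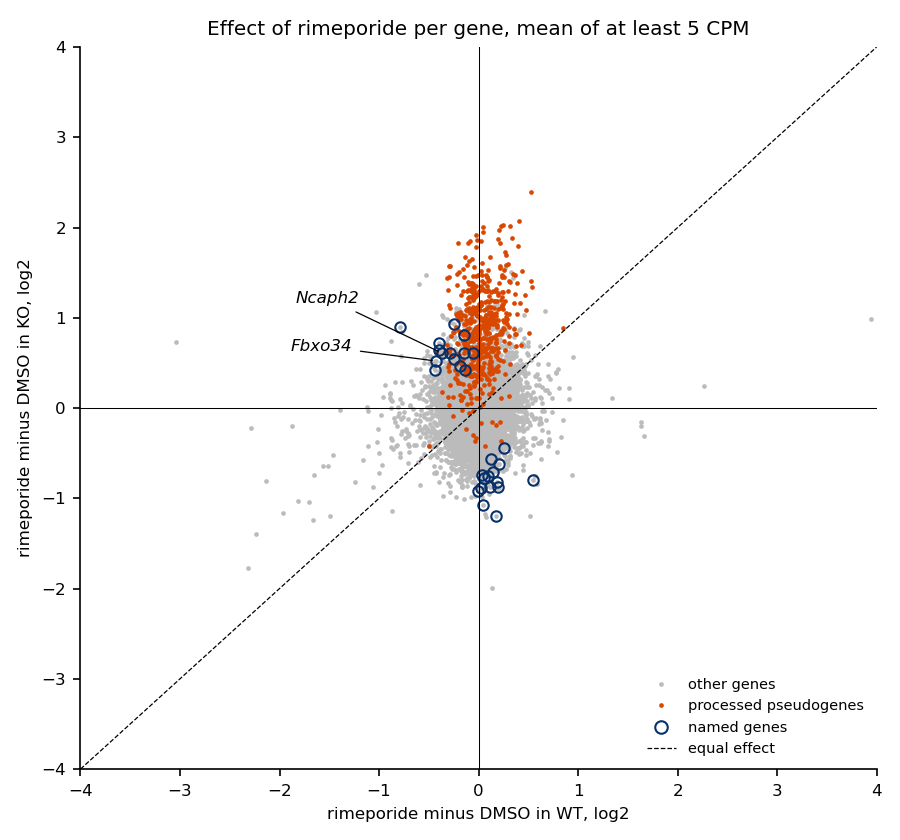
Log2 change with rimeporide in WT (x axis) and KO (y axis) for the 9704 genes with a mean of at least 5 CPM, with processed pseudogenes and 29 of the 30 genes with the smallest interaction p marked. The cloud is wider along the KO axis (SD 0.37) than the WT axis (SD 0.21), and few genes follow the dashed line of equal effects. Over all 933 tested processed pseudogenes the median was 0.92 in KO, where 504 rose, 1 fell and 428 did not pass.

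A gene that does not pass may still differ, and the intervals show by how much. The 95% interval of the interaction lay within -1 to 1 on the log2 scale for 7848 of 12272 genes (64.0%). The share was 4.91% of the 2568 genes under 5 CPM, 71.1% of the 6292 genes at 5 to 50 CPM and 95.1% of the 3412 genes at 50 CPM or more. For 15 genes, 14 of them under 5 CPM, the interval lay wholly beyond that range. The median standard error was 0.24 over all genes, 0.56 under 5 CPM and 0.14 at 50 CPM or more. Genes at 50 CPM or more were thus measured to within a median of 0.30 on either side, and those under 5 CPM to within 1.17.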

How the data were processed

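Primary microglia gave 16 libraries of 3' mRNA tags with molecular identifiers, per the labels' protocols. The authors deposited expected counts for 56980 genes, made with Salmon on GRCm39 per the submitters' processing notes. The sources used here do not give its version, the annotation or whether duplicates were removed. The deposited log2 CPM values were used only as a check, and their correlation with log2 CPM from the counts was at least 0.9999 in every library. Counts were rounded (13.7% of values were not whole).

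edgeR 4.0.16 in R 4.3.3 tested the 12272 genes kept by filterByExpr (minimum count 10, minimum total 15), with TMM scaling and 1 mean per group, which left 12 residual and 10.8 prior degrees of freedom. A gene passed at a Benjamini-Hochberg adjusted p under 0.05. Errors after ± are standard errors (size of the log2 fold change divided by the root of its F statistic), unless called SD. Intervals are 95% intervals from them. The same test was run on simulated counts with known changes as a check of the code. List scores average centred log2 CPM (prior count 2). DESeq2 1.42.0 and limma 3.58.1 were alternatives, as were other scalings, filters, covariates, replicate blocks and leaving out each library. Protein-coding genes only and a threshold of 0.10 were added after seeing the data.

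Biotypes were matched by gene identifier to GENCODE M21, and 114 tested genes had none. Promoter sequences are from RefSeq.

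Named genes were Grn, every gene that passed, the genes with a gene name, a mean of at least 5 CPM and the smallest p up to 30, and up to 3 members of each of 33 lists with the smallest p. Genes without a name and pseudogenes were counted and not named, and 2 and 7 of them were passed over on the way to the 30. Some genes that the rule names are not reported here, though counts include them. The members and lists were chosen with earlier results of these data known. RNA integrity numbers were 10, except 9.9 in KO rimeporide replicates 3 and 4 and not given in replicate 1. The labels name 4 biological replicates per genotype. Where nothing names separate animals, the spread between libraries may still be technical.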

Additional observations from a re-analysis of the deposited data

Results flagged for a closer look

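The effect of rimeporide differed between genotypes by the interaction test itself for Fbxo34 (0.94 on the log2 scale) and Ncaph2 (0.98). Both were higher with the drug in 4 of 4 KO libraries and lower in 4 of 4 WT libraries than any DMSO library of that genotype. Over all tested genes, 6.72% had that order in KO and 1.76% had that order in WT. The order rests on the values that the test used and carries no further test. Fbxo34 passed in 4 and Ncaph2 in 5 of the 16 fits with a library left out. Neither passed in edgeR with the pseudogene score as a covariate (adjusted p = 0.762 for both).

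Of 120 groups of 4 libraries examined for a library far from the other 3, 3 held one, and chance gives about 1 in 20. Dynlt1c stood at 145 CPM in KO rimeporide replicate 1 and at 120 to 121 CPM in the other 3. Dynlt1a stood at 103 CPM in KO DMSO replicate 2 and at 76.1 to 79.9 CPM in the other 3. Ctnnd1 stood at 431 CPM in KO rimeporide replicate 1 and at 325 to 341 CPM in the other 3.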

How the results depend on the processing

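The number of genes with an interaction was 2 under DESeq2's size factors, upper-quartile scaling, a filter of 1 CPM in 4 libraries and protein-coding genes only. It was 269 with DESeq2 (137 positive, 132 negative), 166 with limma-voom (143 and 23), 630 with no filter (377 and 253) and 276 at an adjusted p under 0.10 (170 and 106). With the processed pseudogene score or the neural marker score as a covariate edgeR gave 0, with 527 and 2294 genes at an unadjusted p under 0.05. Leaving out 1 library gave 0 to 1497. The cause of these differences was not tested. With rimeporide in WT the count was 6 with DESeq2, 95 with no filter, 2 with the pseudogene covariate and 0 to 40 with a library left out. In KO it was 1 with the pseudogene covariate, 1106 with protein-coding genes only and 643 to 3002 with a library left out. The genotypes differed in 808 genes in DMSO with the pseudogene covariate and in 1 gene under each treatment with the neural covariate. With a library left out these counts were 1430 to 3345 in DMSO and 701 to 1086 under rimeporide. The share of intervals within the range was 19.8% with no filter and 59.4% to 62.8% with a library left out.

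A replicate block of genotype and number gave 690 interaction genes (420 and 270), 8 genes with rimeporide in WT, 1495 between genotypes in DMSO and 368 under rimeporide. A replicate block by number gave 694 (422 and 272) and 6 in WT. Same-numbered libraries of a genotype had deviations correlated at -0.00445 to 0.185, over 0.1 in 4 of 8 pairs, and 6 of 8 correlated best with their own number. These values do not settle whether the numbers pair samples. The labels do not say so either, and the main fit treated the libraries as independent.

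Of 3240 values of named genes under alternatives, 13 had the opposite sign. Syt1 ran from -0.89 to 0.17 and Kit from -0.0592 to 1.31 with a library left out. With the pseudogene covariate the values were Psmb8 -0.0157, Mef2c -0.14, Mrc1 0.00239, Cd36 -0.00666, Nr1h2 -0.41, Atp6ap2 0.0664, Scarb2 0.0130, Ftl1 -0.17, Fth1 -0.18, Trem2 -0.10 and Syt1 0.21. Of 33 list medians 21 changed sign under some alternative, none of them larger than 0.12 in size. Depth limits low genes most, since the interval lay within 1 log2 unit of 0 for 4.91% of genes under 5 CPM.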
